A study of Mus musculus with 4 samples.

Results

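The G2 and mitosis genes described here are 49 named genes whose products act between the end of DNA replication and the separation of daughter cells, out of 27998 genes counted in this study. They were taken by gene symbol, and every symbol matched 1 gene. Levels are given as CPM, the UMIs (unique molecular identifiers, 1 for each captured transcript) of a gene scaled to the same total in every library. All 49 genes reached 2 CPM in every library, and 47 reached 10 CPM in at least 1 library, so none was lost to a filter on low values. Most transcripts of this kind are made late in the cell cycle under shared control: a repressor complex at their promoters keeps them low in resting and G1 cells, and the same sites later recruit the activators MYB-MuvB and FOXM1. A change in their level in a mixture of cells can therefore come from more cells in G2 or mitosis or from more transcript in each such cell. Blood progenitors divide often, while the stem cells above them are mostly quiescent, so this group of genes is widely used to mark dividing cells in bone marrow.

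Single-cell RNA was captured in droplets from lymphoid-primed multipotent progenitors (LMPPs) sorted by flow cytometry from the marrow of C57BL/6 mice. LMPPs can still form both lymphoid and myeloid cells. RBPJ binds DNA and is the partner with which Notch, once activated, switches on its targets. The 4 groups had 1 library each: mice deficient for RBPJ (RBPJ uninduced), such mice in which doxycycline had switched RBPJ on for 3 days (RBPJ 3 days induced) or 6 days (RBPJ 6 days induced), and Control mice. Doxycycline was injected at 2 mg/ml into the peritoneum, and the drinking water held 1 mg/ml afterwards. The labels repeat this treatment for every library, so whether uninduced and control mice received it is not clear. They also do not give the control genotype, the alleles and promoters that delete or express RBPJ, the age of the mice or how many mice a library holds.

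The libraries held 2769 uninduced, 1292 3-day, 2129 6-day and 2693 control cells, with median UMIs of 6774, 7641.5, 7353 and 7920 per cell in that order. Rbpj stood at 11.2 CPM in uninduced, 508 CPM in 3-day, 485 CPM in 6-day and 17.8 CPM in control cells, so it was high in the libraries labelled as induced and low in the other pair. Whether the counted end of Rbpj lies in the deleted part is not given. Kit, Flt3, Cd34 and Ptprc, which LMPPs carry on their surface, were present in every library. A summed list of 15 neutrophil and monocyte genes stood at 4116, 4915, 3496 and 1549 CPM in uninduced, 3-day, 6-day and control cells, and 11 erythroid genes stood at 863, 293, 736 and 357 CPM. The part of these other cell types in the values below was not tested beyond leaving out the 37, 21, 42 and 8 cells that gave at least 1% of their UMIs to such genes, which kept the direction of each all-cell median and summed ratio given below. Between 2 and 17 cell barcodes were shared by any pair of libraries, at most 0.798% of the smaller one. With 1 library a group, no difference below has a replicate check, no test was made, and library and group cannot be told apart. Every interval is at 95% and covers counting error only.

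The promoters of these genes are known for a pair of short elements, the cell cycle genes homology region (CHR) and the CCAAT box. RefSeq promoters (250 bases before to 50 bases after the start, build GRCm38.p6) were found for 42 of the 49 genes, some with more than 1 start. TTTGAA or TTCGAA or TTCAAA, searched on both strands and counted as a CHR, occurred in promoters of 34 of the 42 genes (81.0%), against 21.7% of all 27025 genes with a promoter. CCAAT or ATTGG occurred for 34 of the 42 genes (81.0%), against 41.1% of all genes. Both motifs stood in 71.7% of the genes' 46 promoters and in 7.52% of all 32851 promoters, and 4 genes, Birc5, Nuf2, Nusap1 and Tacc3, had neither in this window. A match is only these letters in this window. The 7 promoters below belong to 6 of the members that stood apart from the rest between libraries, and to Top2a, whose level is set against theirs. Capitals mark CHR and CCAAT letters, and each sequence runs 5′ to 3′ on the gene's own strand. Ccnb1 (chr13:100786437-100786736, minus strand) and Cks2 (chr13:51644982-51645281, plus strand) had CCAAT letters only. Cdc20 (chr4:118437294-118437593, minus strand), Plk1 (chr7:122159185-122159484, plus strand), Cdkn3 (chr14:46760291-46760590, plus strand) and Ttk (chr9:83834439-83834738, plus strand) had 1 CHR match each. Top2a (chr11:99024140-99024439, minus strand) had 4 CHR and 6 CCAAT matches.
Ccnb1: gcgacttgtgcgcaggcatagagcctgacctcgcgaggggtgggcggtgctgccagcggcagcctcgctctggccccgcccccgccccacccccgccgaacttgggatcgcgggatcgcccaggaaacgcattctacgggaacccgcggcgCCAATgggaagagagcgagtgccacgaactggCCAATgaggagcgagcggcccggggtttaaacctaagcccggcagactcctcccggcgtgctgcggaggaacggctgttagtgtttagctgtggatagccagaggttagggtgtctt
Cdc20: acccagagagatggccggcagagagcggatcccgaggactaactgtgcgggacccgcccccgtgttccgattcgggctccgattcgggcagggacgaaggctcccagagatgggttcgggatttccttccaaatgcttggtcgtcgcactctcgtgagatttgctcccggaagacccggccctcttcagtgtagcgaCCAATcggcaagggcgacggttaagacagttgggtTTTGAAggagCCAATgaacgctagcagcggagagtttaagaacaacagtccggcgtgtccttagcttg
Plk1: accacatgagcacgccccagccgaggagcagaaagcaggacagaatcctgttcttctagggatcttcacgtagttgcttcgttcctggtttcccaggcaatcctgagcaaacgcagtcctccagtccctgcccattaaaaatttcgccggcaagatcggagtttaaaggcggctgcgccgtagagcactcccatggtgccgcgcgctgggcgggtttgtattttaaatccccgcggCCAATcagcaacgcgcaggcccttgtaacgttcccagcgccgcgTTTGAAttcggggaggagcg
Cdkn3: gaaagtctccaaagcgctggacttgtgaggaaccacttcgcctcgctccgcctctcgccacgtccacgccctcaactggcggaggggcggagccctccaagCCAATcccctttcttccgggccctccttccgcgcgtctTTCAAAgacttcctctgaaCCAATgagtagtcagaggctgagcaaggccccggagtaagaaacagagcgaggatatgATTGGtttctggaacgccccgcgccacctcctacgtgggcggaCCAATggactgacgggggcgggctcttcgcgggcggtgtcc
Ttk: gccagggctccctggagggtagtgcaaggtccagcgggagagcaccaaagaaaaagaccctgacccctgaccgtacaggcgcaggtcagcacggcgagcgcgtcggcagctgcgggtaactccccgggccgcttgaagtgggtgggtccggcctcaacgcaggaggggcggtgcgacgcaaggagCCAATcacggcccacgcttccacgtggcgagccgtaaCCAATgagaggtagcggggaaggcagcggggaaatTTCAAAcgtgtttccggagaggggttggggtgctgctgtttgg
Cks2: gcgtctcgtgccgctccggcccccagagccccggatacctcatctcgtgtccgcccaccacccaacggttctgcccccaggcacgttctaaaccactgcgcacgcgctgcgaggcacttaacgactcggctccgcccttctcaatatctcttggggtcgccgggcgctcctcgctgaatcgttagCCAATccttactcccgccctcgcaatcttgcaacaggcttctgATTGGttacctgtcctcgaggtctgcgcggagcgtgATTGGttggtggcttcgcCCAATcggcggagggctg
Top2a: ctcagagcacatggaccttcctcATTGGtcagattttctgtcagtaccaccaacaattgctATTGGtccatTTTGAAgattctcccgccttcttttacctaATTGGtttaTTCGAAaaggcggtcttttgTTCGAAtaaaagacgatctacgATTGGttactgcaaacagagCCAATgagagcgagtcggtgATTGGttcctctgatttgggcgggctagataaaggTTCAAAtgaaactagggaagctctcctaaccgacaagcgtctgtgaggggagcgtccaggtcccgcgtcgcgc
A member was said to stand apart when its log2 ratio was at least 0.3 from the median of the 49 and its counting interval excluded that median. Those printed included genes with and without CHR letters. The median log2 ratios of the 34 genes with a CHR match and of the 8 genes without one were -0.21 and -0.21 in uninduced over control cells, 0.14 and 0.12 in 3-day over uninduced cells, and -0.18 and -0.13 in 6-day over control cells.

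Uninduced LMPPs held less of these transcripts than control LMPPs, and 3 days of RBPJ expression went with a level above that of uninduced cells. Summed over the 49 genes, the level was 4733 CPM (4703 to 4762) in uninduced, 5172 CPM (5129 to 5216) in 3-day, 4926 CPM (4893 to 4959) in 6-day and 5231 CPM (5202 to 5261) in control cells. The gene Hmgb2, which encodes a chromatin protein that bends DNA, gave 31.4% to 32.8% of these UMIs, so counts and medians over genes are used beside the sum. Of the 49 genes, 30 were highest in control, 17 in 3-day, 2 in 6-day and 0 in uninduced cells. The uninduced library held the lowest level for 31 genes, as the plot of levels by library shows. RNA outside cells, read from barcodes with 10 to 100 UMIs, carried 5402, 5754, 6251 and 6540 CPM of the same genes in the uninduced, 3-day, 6-day and control libraries. That is above the level in the cells of each library and, like it, lowest in the uninduced one.

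**Figure D1:**
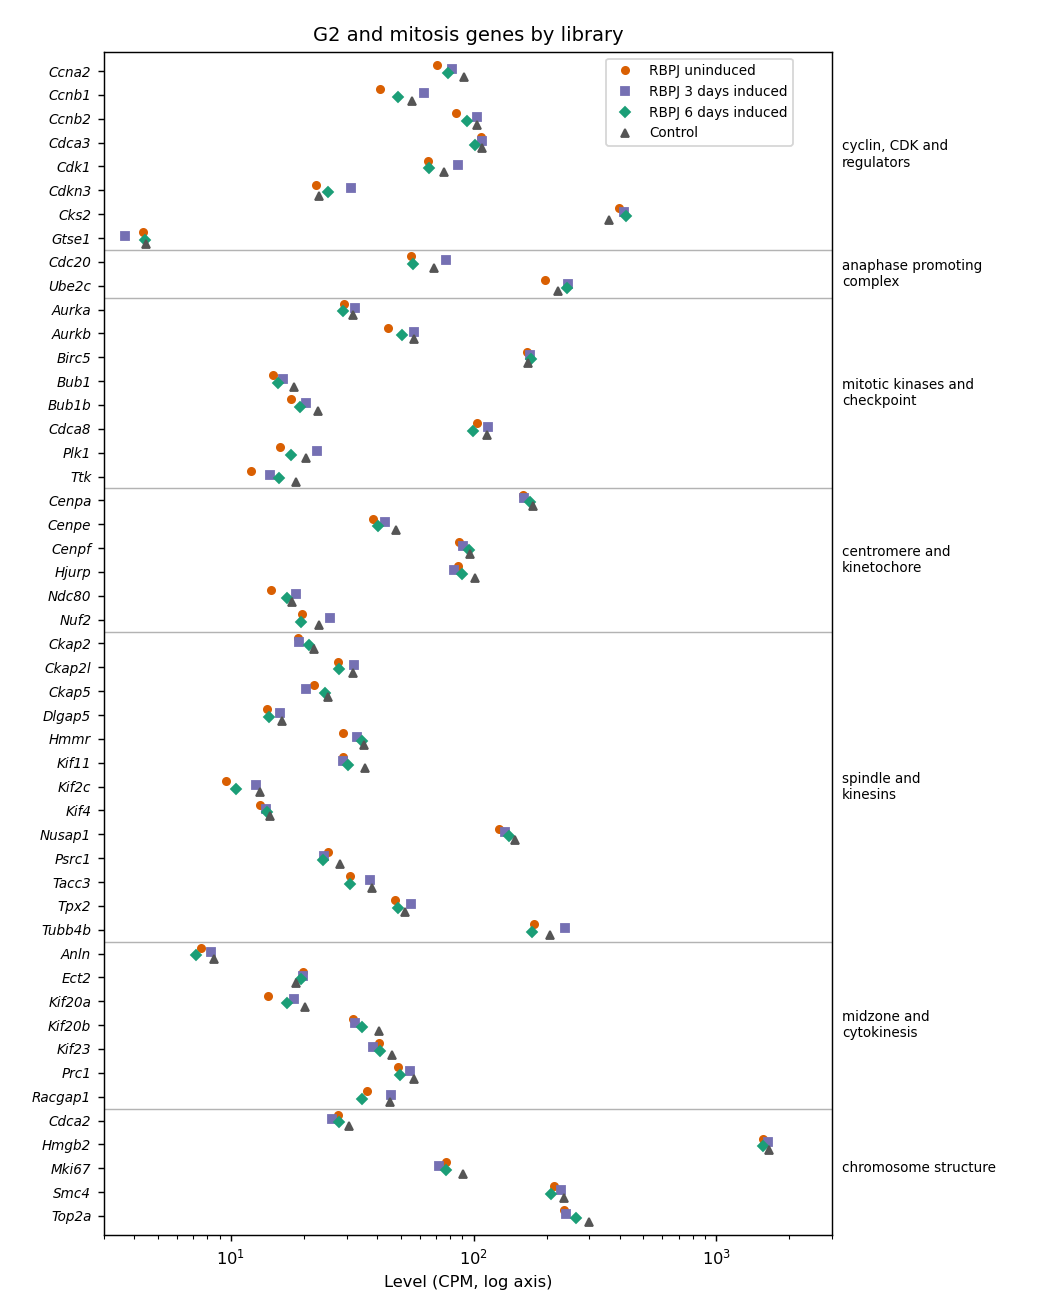
Level of each of the 49 genes (CPM of all cells of a library, log axis) in the RBPJ uninduced, 3-day, 6-day and Control libraries, 1 library each, ordered by role. The uninduced points lie furthest left for 31 genes and the control points furthest right for 30.

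Log2 ratios below were taken after adding 1 CPM, whereas folds divide the CPM values themselves. A gene is counted as past the threshold when its log2 ratio is at least 0.32 in size. Between uninduced and control cells the median of the 49 genes was -0.21, against -0.08 for all 10542 genes at 2 CPM or more. Below 0 lay 47 of the 49, and 7200 of the 10542. Past the threshold 10 members were lower, against 8.31% of all genes, and 0 were higher, against 3.04% of all genes. In cells thinned to 4700 UMIs the median was -0.099 and 3 members were lower, and with TMM factors 4 were lower. No background was counted under such alternatives, here or below, so these counts cannot be set against a share of all genes. The background includes genes of low counts, which pass a fold more often through counting error. In 3-day over uninduced cells the median was 0.15, against -0.02 for all genes, and 42 members lay above 0, as did 4920 of all 10505 genes. Past the threshold 12 members were higher (background 5.45%) and lower were 0 (background 8.11%), and 1 member, Ccnb1, passed 1.5-fold higher (background 1.06%). In thinned cells this median was 0.078, with 5 members higher and 2 lower. In 6-day over uninduced cells the median was 0.07, against -0.02 for all genes, with 1 member higher (background 5.03%) and 0 lower (background 3.82%). The sign of this median turned to -0.03 after each cell was thinned to 4700 UMIs and also to -0.03 without the 5% of cells with most UMIs.

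Between both times of induction, 6-day over 3-day cells had a median of -0.08, against -0.00 for all genes, with 7 members lower (background 6.63%) and 0 higher (background 10.1%). Against control, 3-day cells had a median of -0.04, which became 0.04 with DESeq2 size factors, 0.03 with TMM factors and 0.02 in thinned cells. In that comparison 1 member was higher (background 3.93%) and 2 were lower (background 16.4%), a smaller share than in the background. Over control, 6-day cells had a median of -0.18, against -0.10 for all genes, with 0 members higher (background 2.7%) and 1 lower (background 6.63%). With DESeq2 size factors this median was -0.083 with 0 lower, and without the 5% of cells with most UMIs 8 were lower. Comparisons that share a library are not independent, so a low value in the uninduced library appears in each of its comparisons.

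**Figure D2:**
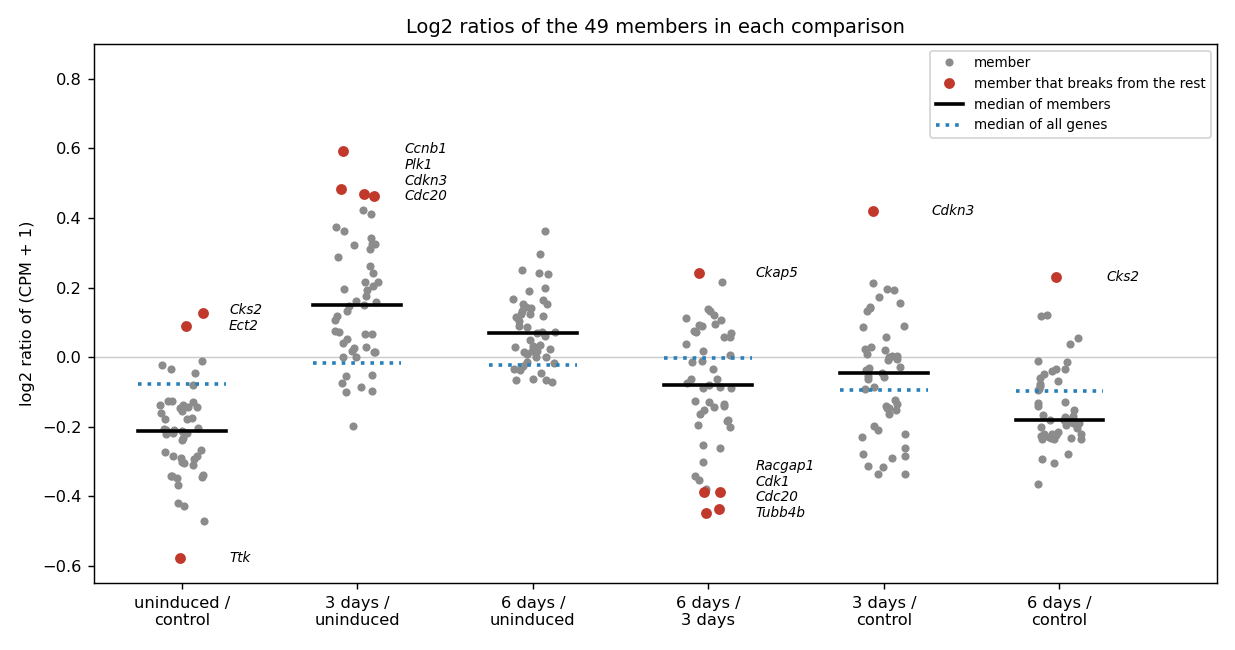
Log2 ratio of (CPM + 1) of each of the 49 genes in the 6 comparisons, with the median of the 49 (black line) and of all genes (dotted line); each library is 1 sample. The medians were -0.21, 0.15, 0.07, -0.08, -0.04 and -0.18 from left to right, and those of 6-day over uninduced and 3-day over control changed sign with the scaling or the cells used. Red points are genes at least 0.3 from the median of the 49 whose counting interval excludes it.

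Cyclins, the kinase they activate and their regulators made up 8 of the genes. Ccnb1, the cyclin that drives entry into mitosis, had 41.2 CPM in uninduced, 62.7 CPM in 3-day, 48.9 CPM in 6-day and 55.5 CPM in control cells. It was lowest in uninduced and highest in 3-day cells, 0.743-fold (0.681 to 0.810) in uninduced over control and 1.52-fold (1.37 to 1.69) in 3-day over uninduced cells. Cdk1, its kinase partner, had 64.7, 86.4, 65.8 and 75.3 CPM in the same order of libraries, with 3-day cells 1.34-fold (1.23 to 1.45) above uninduced and 6-day cells 0.761-fold (0.697 to 0.831) of 3-day cells. Ccnb2, a second B-type cyclin, had 84.3, 103, 93.8 and 103 CPM, and Ccna2, the cyclin of S phase and G2, had 70.8, 81.7, 78.3 and 91.6 CPM in uninduced, 3-day, 6-day and control cells. Cdkn3, a phosphatase that acts on CDKs, had 22.3, 31.3, 25.2 and 23.1 CPM. It stood highest in 3-day cells, 1.40-fold (1.21 to 1.61) over uninduced and 1.35-fold (1.18 to 1.55) over control cells, and its interval in uninduced over control cells, 0.853 to 1.10, held 1.

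Cks2, a small subunit that docks the kinase onto its substrates, had another order of libraries. It had 396 CPM in uninduced, 415 CPM in 3-day, 426 CPM in 6-day and 363 CPM in control cells, so all libraries of RBPJ mice lay above the control library. The folds over control were 1.09 (1.06 to 1.12) in uninduced, 1.14 (1.10 to 1.19) in 3-day and 1.17 (1.14 to 1.21) in 6-day cells. In uninduced over control cells it had a log2 ratio of 0.13 while 47 other members lay below 0, and it kept that sign under each of the 7 alternatives run, from 0.11 to 0.24. Near the end of its transcripts, where this assay counts, 42.3% of all 31-base words also occur in another gene, the highest share among the 49, so its counting may be split with a near copy. Cdca3, which marks WEE1 for destruction, had 107, 108, 102 and 109 CPM in uninduced, 3-day, 6-day and control cells, and Gtse1, a microtubule-bound regulator of G2, had 4.34, 3.66, 4.41 and 4.47 CPM on 39 to 105 UMIs.

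The anaphase promoting complex marks mitotic proteins for destruction, and 2 of the genes serve it. Cdc20, its activator, had 55.4 CPM in uninduced, 76.7 CPM in 3-day, 56.5 CPM in 6-day and 68.7 CPM in control cells. The 3-day library stood 1.38-fold (1.26 to 1.52) over uninduced, and the 6-day library 0.736-fold (0.670 to 0.809) of 3-day. Ube2c, the E2 enzyme of the complex, had 197, 245, 242 and 223 CPM in uninduced, 3-day, 6-day and control cells. Unlike Cdc20, Ube2c in 6-day cells stayed near the 3-day level, at 0.990-fold (0.942 to 1.04).

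Mitotic kinases and the spindle checkpoint contributed 8 genes, all of which lay below 0 in uninduced over control cells and above 0 in 3-day over uninduced cells. Ttk, the kinase that starts the checkpoint, had 12.1, 14.5, 15.8 and 18.5 CPM in uninduced, 3-day, 6-day and control cells. Its fold of 0.652 (0.557 to 0.764) in uninduced over control cells was the lowest among the 49, and 6-day cells stood 1.31-fold (1.10 to 1.56) over uninduced. Plk1, which drives centrosome maturation and mitotic entry, had 15.9, 22.6, 17.6 and 20.4 CPM in the same order, 1.42-fold (1.20 to 1.69) in 3-day over uninduced cells. Aurkb, the kinase of the chromosomal passenger complex, had 44.5, 56.6, 50.9 and 56.6 CPM. Its partner Birc5, better known as survivin, moved much less over all cells, with 167, 171, 172 and 168 CPM. Over all cells its fold was 0.992 (0.948 to 1.04) in uninduced over control cells, and its folds within classes of cells are given below. Cdca8, a subunit of the same complex, had 103, 114, 99.8 and 114 CPM in uninduced, 3-day, 6-day and control cells, and the checkpoint gene Bub1b had 17.8, 20.5, 19.3 and 22.8 CPM. Together with the centrosomal kinase Aurka and the checkpoint kinase Bub1 they had ratios between -0.35 and -0.13 in uninduced over control cells.

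Centromere and kinetochore proteins were encoded by 6 of the genes: the centromeric histone Cenpa, its chaperone Hjurp, the motor Cenpe, the kinetochore protein Cenpf, and Ndc80 and Nuf2 of the complex that grips microtubules. All 6 lay below 0 in uninduced over control cells, with intervals that excluded 1. Nuf2 had 19.7 CPM in uninduced, 25.5 CPM in 3-day, 19.4 CPM in 6-day and 23.0 CPM in control cells, and Ndc80 had 14.7, 18.6, 17.0 and 17.8 CPM. These 2 were past the threshold, higher in 3-day than in uninduced cells. Cenpa had 159.9, 161, 170.3 and 176 CPM in the same order. Cenpe had 38.4, 43.1, 40.4 and 47.8 CPM and Cenpf 87.4, 90.7, 95.4 and 96.2 CPM, each lowest in uninduced and highest in control cells. Hjurp, by contrast, had 86.0, 82.9, 89.7 and 101 CPM, with 3-day cells at 0.819-fold (0.757 to 0.885) of control.

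Spindle proteins and kinesins were the largest set, with 13 genes, and again all 13 lay below 0 in uninduced over control cells. Tubb4b, a beta tubulin, had 178 CPM in uninduced, 239 CPM in 3-day, 175 CPM in 6-day and 206 CPM in control cells. It was highest in 3-day cells, 1.34-fold (1.28 to 1.41) over uninduced, and 6-day cells stood at 0.732-fold (0.694 to 0.772) of 3-day. Kif2c, a kinesin that takes microtubule ends apart, had 9.55, 12.7, 10.5 and 13.2 CPM. Ckap5, a microtubule polymerase, had 22.0, 20.5, 24.4 and 25.02 CPM, and was the member with the highest ratio in 6-day over 3-day cells at 1.19-fold (1.01 to 1.41). Tacc3, which recruits Ckap5 to the spindle, had 30.9, 37.3, 30.9 and 38.1 CPM, Hmmr, a spindle assembly factor, had 28.9, 33.2, 34.5 and 35.4 CPM, and Psrc1, a microtubule-binding protein, had 25.1, 24.1, 23.9 and 28.1 CPM. Ckap2, a spindle-bound protein, had 18.9, 19.1, 21.1 and 22.0 CPM, and the motor Kif11, which pushes spindle poles apart, had 28.9, 28.9, 30.4 and 35.6 CPM. With the chromosome-bound kinesin Kif4 and the spindle proteins Ckap2l, Dlgap5, Nusap1 and Tpx2, these 2 had ratios from -0.29 to -0.13 in uninduced over control and from 0.00 to 0.22 in 3-day over uninduced cells.

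Of the 7 genes of the spindle midzone and cytokinesis, 6 lay below 0 in uninduced over control cells. Kif20a, a kinesin of the midzone, had 14.3, 18.1, 17.0 and 20.2 CPM in uninduced, 3-day, 6-day and control cells, with uninduced at 0.708-fold (0.610 to 0.820) of control. Racgap1, part of the centralspindlin complex that positions the cleavage furrow, had 36.4, 45.8, 34.8 and 45.1 CPM, so uninduced and 6-day cells formed a lower pair and 3-day and control cells a higher one. Ect2, the exchange factor that Racgap1 recruits, had 19.9, 19.9, 19.4 and 18.6 CPM, and its folds over control held 1 in all 3 comparisons. Anln, a scaffold of the cleavage furrow, had 7.54, 8.26, 7.16 and 8.55 CPM, and Prc1, which bundles midzone microtubules, had 48.8, 54.6, 49.8 and 57.1 CPM. With the kinesins Kif20b and Kif23, Prc1 had ratios from -0.34 to -0.18 in uninduced over control cells.

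Chromosome structure was the role of the last 5 genes, and some of these did not share the high 3-day level of the cyclins. Top2a, the topoisomerase that untangles replicated DNA, had 236 CPM in uninduced, 241 CPM in 3-day, 265 CPM in 6-day and 299.9 CPM in control cells. Mki67, which coats mitotic chromosomes, had 76.8, 71.8, 77.3 and 90.7 CPM in the same order. Both were below control in every RBPJ library, with 3-day folds over control of 0.804 (0.768 to 0.841) for Top2a and 0.791 (0.727 to 0.859) for Mki67, while Ccnb1, Cdk1 and Cdc20 stood above control in the same library at 1.13-fold (1.03 to 1.24), 1.15-fold (1.06 to 1.24) and 1.12-fold (1.03 to 1.22). Smc4, a condensin subunit, had 214, 230, 208 and 236 CPM, Hmgb2 had 1553, 1634, 1553 and 1643 CPM, and Cdca2, which targets a phosphatase to chromosomes, ranged from 26.1 to 30.6 CPM.

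To set the share of cells in G2 or M against the level per such cell, a score was built from 50 other G2/M genes that hold none of the 49. Each cell was thinned to 4700 UMIs, and cells with 16 or more score UMIs were called G2/M cells. This class is a range of a score and not a cell type, and 123 uninduced, 64 3-day, 122 6-day and 173 control cells lay within 2 UMIs of the threshold. G2/M cells made up 14.1% (12.7 to 15.7, exact Clopper-Pearson) of uninduced, 16.5% (14.3 to 18.8) of 3-day, 13.0% (11.5 to 14.7) of 6-day and 15.2% (13.8 to 16.8) of control cells, on 296 of 2093, 179 of 1088, 229 of 1755 and 357 of 2342 cells. The intervals of neighbours in the order of these shares overlap, and the 3-day and 6-day intervals overlap as well. Neutrophil and monocyte genes summed to 4522, 6384, 1579 and 599 CPM in the G2/M cells of the uninduced, 3-day, 6-day and control libraries, and erythroid genes to 2722, 337, 955 and 323 CPM. Of the classified cells, 26, 16, 25 and 3 gave at least 1% of their UMIs to genes of other cell types, and 6, 5, 3 and 0 of these were G2/M cells, in the same order. The free RNA described above reaches such calls too, so no cycling is read from them alone.

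The score genes move with the 49, so more transcript per cell would also carry cells over the fixed threshold and count as share, and the level inside the class is held in part by how it was drawn. Share and level per cell are therefore not fully separated by this class. Within G2/M cells the 49 genes summed to 13252 to 13494 CPM in the 4 libraries. Their sum was 13295 CPM (13171 to 13420) in uninduced, 13494 CPM (13338 to 13652) in 3-day, 13367 CPM (13233 to 13502) in 6-day and 13252 CPM (13147 to 13358) in control cells. After thinning this was 63.1, 64.2, 63.5 and 62.8 member UMIs per G2/M cell in the same order. In the other cells the sum was 3466, 3285, 3494 and 3441 CPM, lowest in the 3-day library. Per gene, the median log2 ratio within G2/M cells was -0.06 in uninduced over control and -0.00 in 3-day over uninduced cells, where the medians over all cells had been -0.21 and 0.15. With a lower threshold that 30% of cells may reach, the within-class median of 3-day over uninduced cells was 0.10, and the shares were 29.0% in uninduced and 29.7% in 3-day cells. G2/M cells were also larger in RNA, with median UMIs of 10697, 11443, 11937 and 12323, against 7481, 7820, 7769 and 7979 in the other cells.

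**Figure D3:**
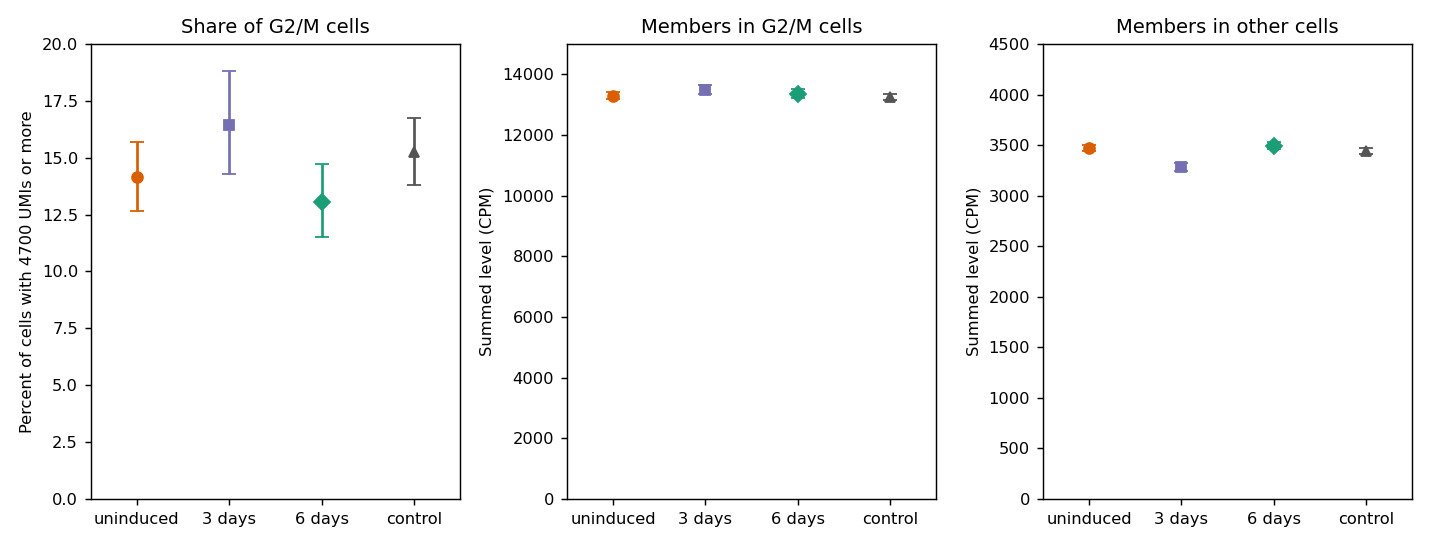
Share of cells called G2/M (percent of cells with 4700 UMIs or more, left), and summed level of the 49 genes (CPM) in G2/M cells (middle) and in the other cells (right), in the uninduced, 3-day, 6-day and control libraries. Bars are exact 95% intervals of counting; shares range from 13.0% to 16.5% with overlapping bars between neighbours, and the level in G2/M cells from 13252 to 13494 CPM.

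The summed level of the classified cells was also split by arithmetic into share and level, with the same limit: a change in level per cell can be booked as share. The share in this split is that of UMIs and not of cells, so it also rises with the RNA held by each G2/M cell. G2/M cells held 18.0% of the UMIs in uninduced, 21.4% in 3-day, 17.8% in 6-day and 20.8% in control cells. Between 3-day and uninduced cells the log2 ratio of the sum was 0.063. Giving uninduced cells the 3-day share of UMIs in G2/M cells, with their own levels, gave 0.089, and giving them the 3-day levels with their own share gave -0.031. Between uninduced and control cells the ratio was -0.067, of which the share alone gave -0.074 and the levels alone 0.0075. Between 6-day and 3-day cells it was -0.057, with -0.099 from the share alone and 0.036 from the levels alone. A single member can set the sign of a small levels term. Cks2 had 1057 CPM in uninduced and 883 CPM in control G2/M cells, a wider gap than that of the sums, 13295 and 13252 CPM. In the other cells it had 300 and 248 CPM, again a wider gap than that of the sums, 3466 and 3441 CPM. The split was not run without Cks2. These sums cover only classified cells. Cells under 4700 UMIs, which could not be classified, were 24.4% of uninduced, 15.8% of 3-day, 17.6% of 6-day and 13.0% of control cells. They held 1206, 1422, 1287 and 1291 CPM of the 49 genes, against 5233, 5467, 5253 and 5481 CPM in the classified cells of the same libraries. The summed fold of uninduced over control was 0.905 (0.897 to 0.912) over all cells and 0.979 (0.967 to 0.992) over thinned cells, which leaves the shallow cells out and gives each remaining cell the same weight. The part of the shallow cells in the difference was not tested further.

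Some genes were higher within G2/M cells at 3 days. Kif2c, Cdk1, Tacc3, Plk1, Tubb4b, Ccnb1 and Kif20a were higher there past the threshold than in uninduced G2/M cells, 7 of 49, a share below the background of 17.3% in these smaller samples of cells. Ccnb1 had 183, 234, 191 and 208 CPM in uninduced, 3-day, 6-day and control G2/M cells, with 1.27-fold (1.13 to 1.44) in 3-day over uninduced, less than the 1.52-fold over all cells. Cdk1 had 186, 249, 201 and 199.8 CPM and 1.33-fold (1.19 to 1.502), as large as over all cells. The all-cell folds of both genes include cells under 4700 UMIs, which were not classified, so they do not cover the same cells. Tubb4b had 470 CPM in uninduced, 600.2 CPM in 3-day, 473 CPM in 6-day and 505 CPM in control G2/M cells. Outside G2/M cells Tubb4b was also highest at 3 days, with 135, 158, 122 and 138 CPM, while Cdk1 there had 48.1, 49.2, 42.7 and 48.3 CPM. In 6-day over 3-day G2/M cells 6 members were lower (background 18.9%), and in uninduced over control G2/M cells 2 were, Ttk and Kif2c (background 18.8%).

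**Figure D4:**
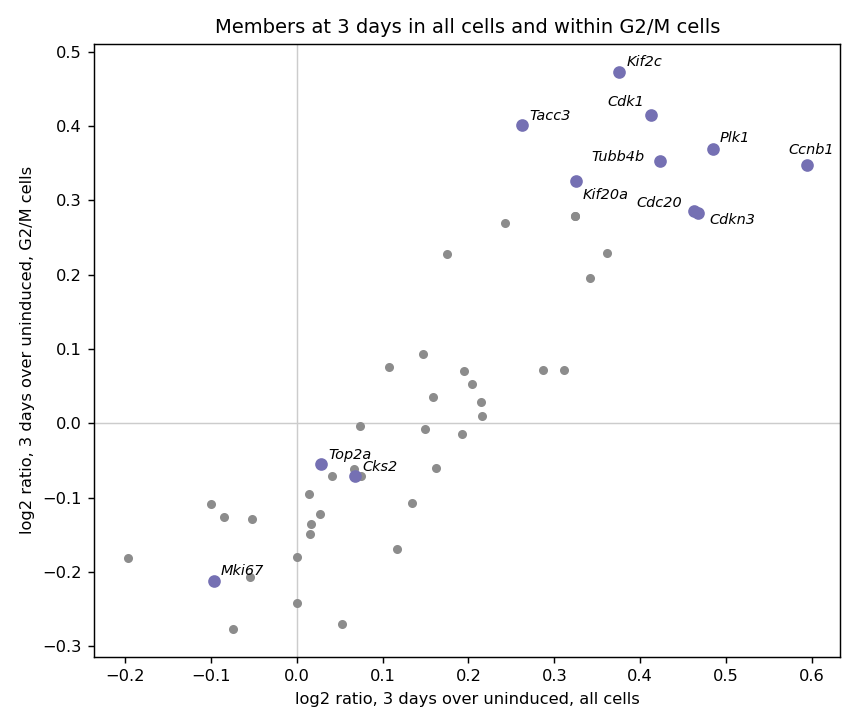
Log2 ratio of (CPM + 1) in 3-day over uninduced cells for each of the 49 genes, over all cells (horizontal axis) and over G2/M cells (vertical axis). G2/M cells were called only among cells of 4700 UMIs or more. Purple points are genes that stood apart over all cells or passed a log2 ratio of 0.32 in G2/M cells, with Mki67, Top2a and Cks2; Ccnb1 had 0.59 over all cells and 0.35 in G2/M cells, and Mki67 had -0.10 and -0.21.

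Cks2 kept its excess over control in either class. In G2/M cells it had 1057, 1006, 1096 and 883 CPM in uninduced, 3-day, 6-day and control libraries, and in the other cells 300.3, 283, 314 and 248 CPM. The folds over control were 1.20 (1.14 to 1.253) for uninduced and 1.24 (1.18 to 1.30) for 6-day G2/M cells, and 1.21 (1.16 to 1.26) for uninduced and 1.26 (1.21 to 1.32) for 6-day cells outside the class. Cks2 was not alone in this. Birc5 in uninduced cells stood at 1.11-fold (1.03 to 1.18) of control in G2/M cells and 1.12-fold (1.05 to 1.20) outside. Cdca3 in uninduced cells stood at 1.10-fold (1.01 to 1.19) and 1.11-fold (1.03 to 1.21), but at 0.915-fold (0.836 to 1.001) in 6-day G2/M cells. Ttk was low in uninduced cells of either class, at 0.709-fold (0.559 to 0.895) of control in G2/M cells and 0.736-fold (0.589 to 0.916) outside. Mki67 at 3 days was likewise low in either class, at 0.863-fold (0.760 to 0.978) of uninduced in G2/M cells and 0.8001-fold (0.706 to 0.905) outside.

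The genes differed in how tightly they follow G2 and mitosis, as a mean over the 4 libraries shows. S cells, called in the same way from 57 S phase genes, were 14.1% of uninduced, 10.0% of 3-day, 10.7% of 6-day and 14.7% of control cells. The highest ratios of G2/M cells to all other cells belonged to Ccnb1 (10.2), Cdkn3 (9.99), Ube2c (9.30), Plk1 (9.26) and Cdc20 (9.05), and the lowest to Hjurp (2.49), Smc4 (2.72), Hmgb2 (2.83), Top2a (3.13) and Aurkb (3.39). Against S cells the spread was wider, from a log2 ratio of 4.80 for Cdkn3 and 4.75 for Ube2c to 1.03 for Hjurp and 0.96 for Aurkb. Cells of neither class are those below both thresholds. They include cells just under the G2/M threshold, so they are not cells outside the cycle. Cdkn3 had a mean level of 98.5 CPM in G2/M cells, 2.57 CPM in S cells and 11.4 CPM in cells of neither class, so S cells held less of it than cells of neither class. Ube2c had 875, 31.5 and 107 CPM and Cenpa 552, 26.8 and 98.6 CPM in the same order. Top2a instead had 622 CPM in G2/M cells, 301 CPM in S cells and 177 CPM in cells of neither class, and Aurkb had 130.2, 66.3 and 32.4 CPM. Each gene from Cenpe up to Cdkn3 in the order of G2/M to S ratios was lower in S cells than in cells of neither class.

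**Figure D5:**
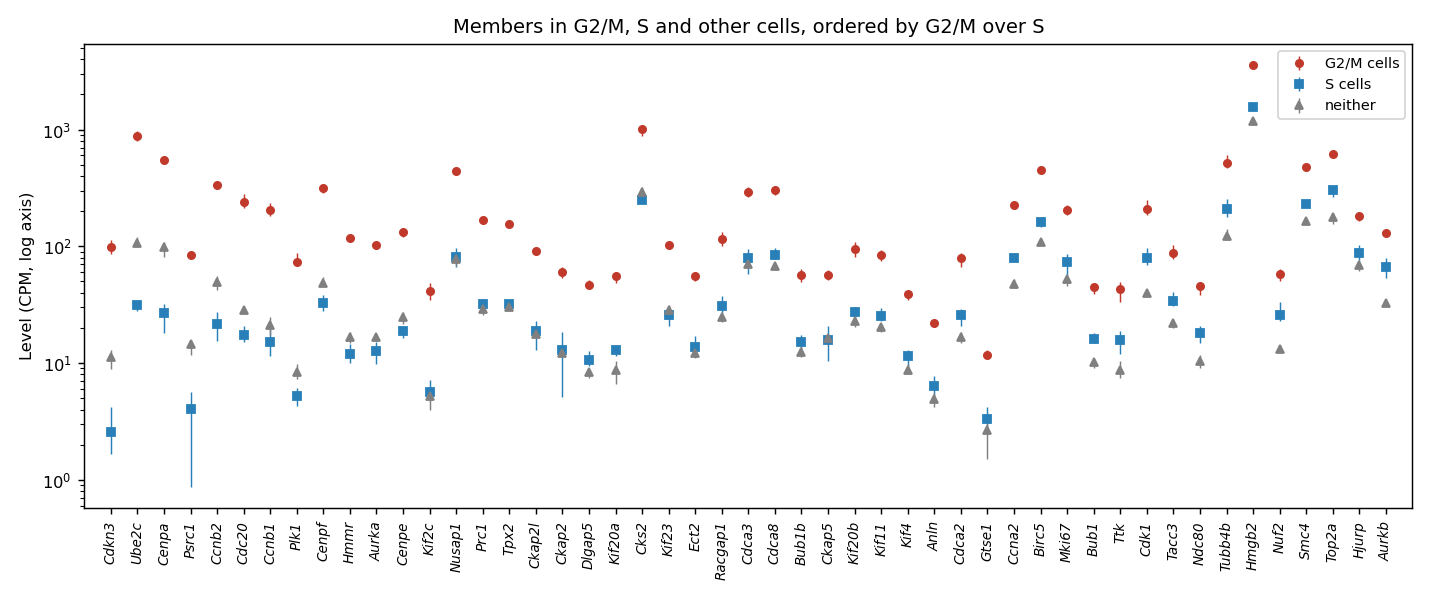
Mean level over the 4 libraries (CPM, log axis) of each of the 49 genes in G2/M cells (circles), S cells (squares) and cells of neither class (triangles), ordered by the ratio of G2/M to S cells; lines span the lowest and highest library. Cdkn3, Ube2c, Cenpa and Psrc1 at the left lie lower in S cells than in the neither class, and Top2a, Hjurp and Aurkb at the right lie higher.

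The 4 genes that stood apart at 3 days, Ccnb1, Cdc20, Cdkn3 and Plk1, are all among the 5 with the highest ratio of G2/M to other cells. When the 49 genes were split at the middle of the G2/M to S order, a split made after seeing the values, the later 24 had a median of 0.18 in 3-day over uninduced cells with 7 higher past the threshold, and the earlier 25 had a median of 0.11 with 5 higher, against 5.45% of all genes. Within G2/M cells, which leave out cells under 4700 UMIs, these medians were 0.02 and -0.06. Counting is uncertain for some of them, since 36.6% of the end words of Ccnb1, 27.5% of Cdc20 and 11.3% of Plk1 occur in other genes, while Cdkn3 has 0 such words. The same limit holds for Tubb4b, with 25.7% of its end words in other genes, and for Hmgb2, with 23.6%.

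Other genes of the same phases lay close to the 49. A list of 52 further G2/M genes, of which 50 form the score, had medians of -0.21 in uninduced over control, 0.12 in 3-day over uninduced, 0.08 in 6-day over uninduced and -0.04 in 6-day over 3-day cells. In uninduced over control cells 49 of the 52 lay below 0 and 11 were lower past the threshold, against 8.31% of all genes. The lowest were Kpna2, an importin, with 10.5, 14.8, 19.8 and 24.2 CPM in uninduced, 3-day, 6-day and control cells, and Ska3, of a kinetochore complex, with 8.97, 10.1, 9.85 and 13.7 CPM. The highest were Pttg1, the securin gene, with 23.7, 27.8, 22.0 and 22.4 CPM, and the kinesin gene Kif18a with 11.5, 11.2, 11.5 and 11.1 CPM. The 57 S phase genes had medians of -0.06 in uninduced over control, 0.06 in 3-day over uninduced, -0.07 in 6-day over uninduced and -0.16 in 6-day over control cells.

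G2/M cells were unevenly spread over clusters of cells. All cells were clustered without the cycle genes of these lists, and the sets named here were chosen after seeing them. The clusters still followed the cycle in part, so dividing cells of a kind can fall in another cluster. A share per cluster is therefore not a share per kind of progenitor. A cluster led by Wfdc17 and Ifitm1 had the stem cell genes Hlf and Ly6a among its top 10. Of its classified cells, 0 of 180 uninduced, 0 of 68 3-day, 0 of 223 6-day and 0 of 365 control cells were G2/M cells. Among classified cells this allows shares of up to 1.67%, 4.41%, 1.35% and 0.822% when 3 counts are taken as the limit. The upper Clopper-Pearson bounds were 2.03%, 5.28%, 1.64% and 1.01%. The cluster held 290, 104, 322 and 462 cells in these libraries, and those under 4700 UMIs were not classified. The lymphoid genes Il7r and Ly6d were among the top 10 of 2 clusters. In one of these, 0 of 552 classified cells were G2/M cells, 0 in every library. In the other the share was 33.3% (23.7 to 44.1) in uninduced, 54.1% (36.9 to 70.5) in 3-day, 41.2% (34.2 to 48.5) in 6-day and 34.5% (27.4 to 42.2) in control cells, on 90, 37, 194 and 168 cells, with overlapping intervals. This second cluster had the G2/M gene Ube2c among its top 10, so the 2 clusters part cells by the cycle. Pooled, their shares were 12.7% (8.74 to 17.6) in uninduced, 25.3% (16.2 to 36.4) in 3-day, 20.2% (16.4 to 24.5) in 6-day and 17.6% (13.6 to 22.1) in control cells. These were 30 of 236, 20 of 79, 80 of 396 and 58 of 330 cells, and the intervals overlap. Both lymphoid clusters together held 8.70%, 6.19%, 18.6% and 12.5% of the cells, and the Hlf and Ly6a cluster 10.5%, 8.05%, 15.1% and 17.2%, in the uninduced, 3-day, 6-day and control libraries. A single cluster of 271 cells was led by Ccnb1, Cdc20 and Ccnb2, and 85.9% of its 269 classified cells were G2/M cells.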

How the data were processed

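The files hold whole-number UMI counts per gene and cell, deposited by the authors as raw matrices, and log2 expression values deposited by the authors in tables that were used here only to list the cells of each library. Seurat and the mouse build mm10 are named per the submitters' processing notes, and for the aligner and counter, the entry is: not given in the sources used here. Columns without a sample numbered 0. UMI counts of the listed cells were added up per library and expressed as CPM, and log2 ratios were taken of CPM + 1, over genes at 2 CPM or more. Depth was 20952799 UMIs in uninduced, 10647894 in 3-day, 17455692 in 6-day and 23504158 in control cells. Levels carry exact Poisson intervals, folds exact intervals conditional on both libraries' sum, and shares Clopper-Pearson intervals, at 95%, and cover counting error only. With 1 library a group no test was made.

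The score for G2/M cells used 50 other G2/M genes at 4700 UMIs a cell, with a threshold of 16 UMIs, the smallest that at most 15% of the cells of all libraries reach. Of the 52 further genes, Kpna2 and Fzr1 stayed out of the score. S cells needed 29 UMIs over the S phase genes. Doublets were not called, and an alternative leaves out the 5% of cells with most UMIs. Clusters came from 2000 variable genes and 30 components (Leiden, resolution 1.0). The members and lists were chosen with earlier results of these data known. Named with values in every library are the 3 highest and 3 lowest ratios of each comparison, members that stand apart, the 5 members with most CPM, the 5 highest and 5 lowest in G2/M over other cells, and Mki67, Top2a, Ccnb1, Cdk1, Plk1 and Aurkb; of further G2/M genes, the 2 highest and 2 lowest in uninduced over control. The scripts were tested on simulated data. Python 3.11.15, numpy 2.4.6, scipy 1.17.1, pandas 2.3.3, scanpy 1.11.5, matplotlib 3.10.9 and R 4.3.3 were used, with edgeR 4.0.16 and DESeq2 1.42.0 for scaling factors alone.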

Additional observations from a re-analysis of the deposited data

How the results depend on the processing

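With groups of a single library, no replicate could be left out. No paired analysis was possible because no group holds a second library. Over the alternatives the median log2 ratio of the 49 genes ran from -0.22 to -0.099 in uninduced over control, 0.078 to 0.16 in 3-day over uninduced, -0.032 to 0.087 in 6-day over uninduced, -0.12 to -0.067 in 6-day over 3-day, -0.053 to 0.042 in 3-day over control and -0.20 to -0.083 in 6-day over control. Alternatives that leave cells out also redraw the thinning, so their shares and class medians include that draw. The cause of the changes below was not tested, and counts of members under an alternative have no background over all genes. The summed fold of uninduced over control was 0.957 with DESeq2 size factors, 0.949 with TMM, 0.886 without the 4 broadly expressed members, 0.895 without cells of other types, 0.917 without the 5% of cells with most UMIs and 0.979 in thinned cells. That of 3-day over uninduced was 1.11 with DESeq2 and 1.05 thinned. That of 6-day over uninduced was 1.05 with DESeq2, 1.05 with TMM, 1.07 without broad members, 1.05 without other types, and below 1 at 0.997 without the top 5% and 0.972 thinned. That of 6-day over 3-day was 0.973 without broad members, 0.921 without the top 5% and 0.925 thinned. That of 3-day over control turned to 1.06 with DESeq2, 1.04 with TMM and 1.03 thinned, and was 0.977 without broad members. That of 6-day over control turned to 1.01 with DESeq2, and was 0.999 with TMM, 0.9501 without broad members, 0.914 without the top 5% and 0.952 thinned. Members lower past the threshold in uninduced over control numbered 4 with DESeq2, 4 with TMM, 6 without the top 5% and 3 thinned. For 3-day over uninduced, thinning gave 5 higher and 2 lower. For 6-day over uninduced, 2 were higher without other types and 0 without the top 5%, and 1 was lower thinned. For 6-day over 3-day, 1 was higher thinned. For 3-day over control, 3 were higher thinned, and 0 lower with DESeq2, 0 with TMM and 4 thinned. For 6-day over control, 1 was higher with DESeq2 and 1 thinned, and 0 lower with DESeq2, 0 with TMM, 2 with a pseudocount of 0.1 CPM, 8 without the top 5% and 4 thinned. The share of G2/M cells with thresholds at 10%, 20% and 30% was 8.46%, 17.1% and 29.0% in uninduced, 10.8%, 19.2% and 29.7% in 3-day, 7.69%, 17.3% and 28.8% in 6-day and 9.82%, 19.3% and 31.3% in control cells. It was 11.02% in uninduced cells thinned to 3000 UMIs, and without thinning 12.2% in uninduced and 17.4% in control cells. Within G2/M cells the median of 3-day over uninduced was 0.10 at 30% and 0.054 with another seed, and that of 3-day over control -0.040 at 10%, -0.029 at 3000 UMIs and -0.025 with the members as the score. Outside them, uninduced over control was 0.15 at 30%, and 3-day over uninduced was -0.036, -0.14 and -0.13 at 10%, 20% and 30%, -0.027 at 3000 UMIs and -0.031 with the members' score. Outside them, 6-day over 3-day was 0.024 at 30%, 0.033 at 3000 UMIs, 0.016 with the members' score and turned to -0.082 without thinning. Outside them, 6-day over control was -0.049 at 20%, 0.054 at 30%, -0.047 with the members' score, -0.043 without the top 5% and -0.045 with another seed. Depth limits genes such as Gtse1, with 39 UMIs in the 3-day library, and 1 library a group limits every difference.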
